A study of Mus musculus with 11 samples.

Results

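Interferon-stimulated genes are the genes that a cell switches on when interferon, the cytokine family of antiviral defence, binds its receptors. The 57 genes described here are those among the 12787 listed genes whose symbols name an interferon regulatory factor (IRF), a signal transducer and activator of transcription (STAT), a member of the Ifit, Ifitm, Ifi, Oas, Gbp, Irgm or Mx families, or 1 of 11 further genes of the response such as Isg15, Rsad2 and Bst2. They were chosen by symbol, with earlier results of these data known. Of the symbols written out singly, Iigp1 and Igtp were not analysed here.

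Interferons signal through Janus kinases, which phosphorylate STAT proteins. Type I interferons give a complex with STAT2 and IRF9 that binds the interferon-stimulated response element, and interferon gamma acts through the gamma-activated site. In obese adipose tissue, macrophages, lymphocytes, endothelial cells and adipocytes can all respond, and several IRFs also set the state of macrophages independently of interferon.

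RNA was sequenced from the gonadal white adipose tissue (WAT) of 11 male C57Bl6/J wildtype mice. Of these, 5 were on a high fat diet alone (HFD control, treatment label vehicle) and 6 on the same diet with iodomethylcholine (HFD + IMC). All of them were fed a 60% high fat diet for 20 weeks, and the treated mice received 0.06% w/w IMC in it, a small molecule that blocks the bacterial enzyme making trimethylamine from choline. Each library came from 1 mouse. The comparison asks how this inhibitor changed transcripts of the fat pad, and the labels do not give the age of the mice or the cage they shared.

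The libraries held 22320022 to 25155366 reads on the listed genes, and the groups overlapped in depth. Levels are read counts relative to library size on a log2 scale (log2 CPM) after upper-quartile scaling, as deposited, and the upper quartile was 6.13 in every mouse. The groups were compared with limma fitted on all listed genes, and a gene was called at a Benjamini-Hochberg adjusted p under 0.05. These p-values measure the spread between mice of 1 experiment. In tissue RNA, fewer cells of a type and less RNA per cell cannot be told apart. Adipocyte markers such as Adipoq, Plin1 and Lep marked the tissue, with 13 listed markers summing to 20448 to 25931 CPM in HFD control mice and 32222 to 37216 CPM in IMC-treated mice.

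The binding element is shown first because it is what many of these genes have in common outside the rule. RefSeq promoter windows, 250 bases before to 50 bases after an annotated start (build GRCm38.p6), were found for 44 of the 57 genes. The letters GAAANNGAAA (TTTCNNTTTC on the other strand, overlapping matches allowed) stood in the window of 23 of the 44 genes (52.3%), against 1079 of 27025 RefSeq genes (3.99%). Below are the 200 bases upstream of the start for 3 genes that did not pass the test between the groups (Isg15, Ifit1 and Gbp2) and 3 that were lower in IMC-treated mice (Oas1a, Irgm1 and Bst2). Each is read 5′ to 3′ on its own strand, and capitals mark the matching letters.

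Isg15, chr4:156200819-156201018, minus strand: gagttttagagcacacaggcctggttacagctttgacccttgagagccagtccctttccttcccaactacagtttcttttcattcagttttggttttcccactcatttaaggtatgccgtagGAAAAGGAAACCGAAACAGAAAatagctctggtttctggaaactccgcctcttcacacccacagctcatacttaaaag
Ifit1, chr19:34640689-34640888, plus strand: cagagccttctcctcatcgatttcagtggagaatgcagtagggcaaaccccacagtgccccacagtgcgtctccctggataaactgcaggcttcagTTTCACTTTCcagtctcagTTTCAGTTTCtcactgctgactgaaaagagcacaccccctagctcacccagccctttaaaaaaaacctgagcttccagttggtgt
Gbp2, chr3:142620463-142620662, plus strand: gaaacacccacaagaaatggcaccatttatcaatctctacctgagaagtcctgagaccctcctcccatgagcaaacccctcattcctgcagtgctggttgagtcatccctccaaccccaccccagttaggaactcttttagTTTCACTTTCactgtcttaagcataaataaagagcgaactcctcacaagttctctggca
Oas1a, chr5:120907526-120907725, minus strand: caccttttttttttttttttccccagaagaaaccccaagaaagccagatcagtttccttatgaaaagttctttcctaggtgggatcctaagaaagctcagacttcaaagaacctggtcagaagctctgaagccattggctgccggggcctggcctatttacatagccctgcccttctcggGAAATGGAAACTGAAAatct
Irgm1, chr11:48871421-48871620, minus strand: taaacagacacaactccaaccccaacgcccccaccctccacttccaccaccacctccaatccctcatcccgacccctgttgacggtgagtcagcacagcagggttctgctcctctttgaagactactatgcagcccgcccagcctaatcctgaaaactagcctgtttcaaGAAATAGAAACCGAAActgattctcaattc
Bst2, chr8:71537473-71537672, minus strand: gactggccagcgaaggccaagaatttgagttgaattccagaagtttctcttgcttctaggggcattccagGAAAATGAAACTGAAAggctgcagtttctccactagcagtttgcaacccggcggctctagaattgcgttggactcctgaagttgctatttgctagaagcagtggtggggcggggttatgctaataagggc

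In these windows the first match began between 20 bases (Oas1a) and 130 bases (Bst2) before the start. Isg15 held 3 overlapping matches, and Oas1a, Irgm1 and Bst2 held 2 each. The letters stood in 15 of the 28 windows of genes that did not pass the test (53.6%) and in 8 of the 15 windows of genes lower in IMC-treated mice (53.3%). By family they stood in 9 of 13 antiviral effectors, 6 of 7 GBP and IRG genes and 2 of 2 PYHIN genes with a window, but in 1 of 8 IRFs and 1 of 5 STATs. The letters TTCNNNGAA, the core of the gamma-activated site, stood in 12 of the 44 windows (27.3%), against 9.55% of RefSeq genes. A match is a description of the letters and not a measured binding site.

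Of the 57 genes, 19 passed the test (33.3%), against 5236 of all 12787 genes (40.9%). Lower in IMC-treated mice were 16 genes (28.1%), where the background was 21%, and higher were 3 genes (5.26%), where the background was 20%. The 16 lower genes were Irf2, Irf3, Irf5, Irf8, Irf9, Stat2, Oas1a, Oas1g, Oasl1, Bst2, Irgm1, Ifi47, Ifi203, Ifi204, Ifi205 and Ifi30, and the 3 higher genes were Stat5a, Ifi27 and Ifi27l2a. For 10 of the 57 genes (17.5%) every value of 1 group lay beyond every value of the other, against 23.1% of all genes. The median log2 fold change was -0.19 over the 57 genes and -0.03 over all genes, and 42 of the 57 values (73.7%) were below 0, against 54.4% of all genes. Without HFD control replicate 4 the median of the 57 genes was -0.12, and without HFD control replicate 1 it was -0.27, while that of all genes ran from -0.03 to -0.02 when each mouse was left out. Among the indicators of a type I interferon response, Isg15, Ifit1, Ifit3, Rsad2, Usp18, Mx1 and Irf7 did not pass the test. Oas1a, Bst2, Stat2 and Irf9, which also belong to that response, were lower in IMC-treated mice.

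**Figure D1:**
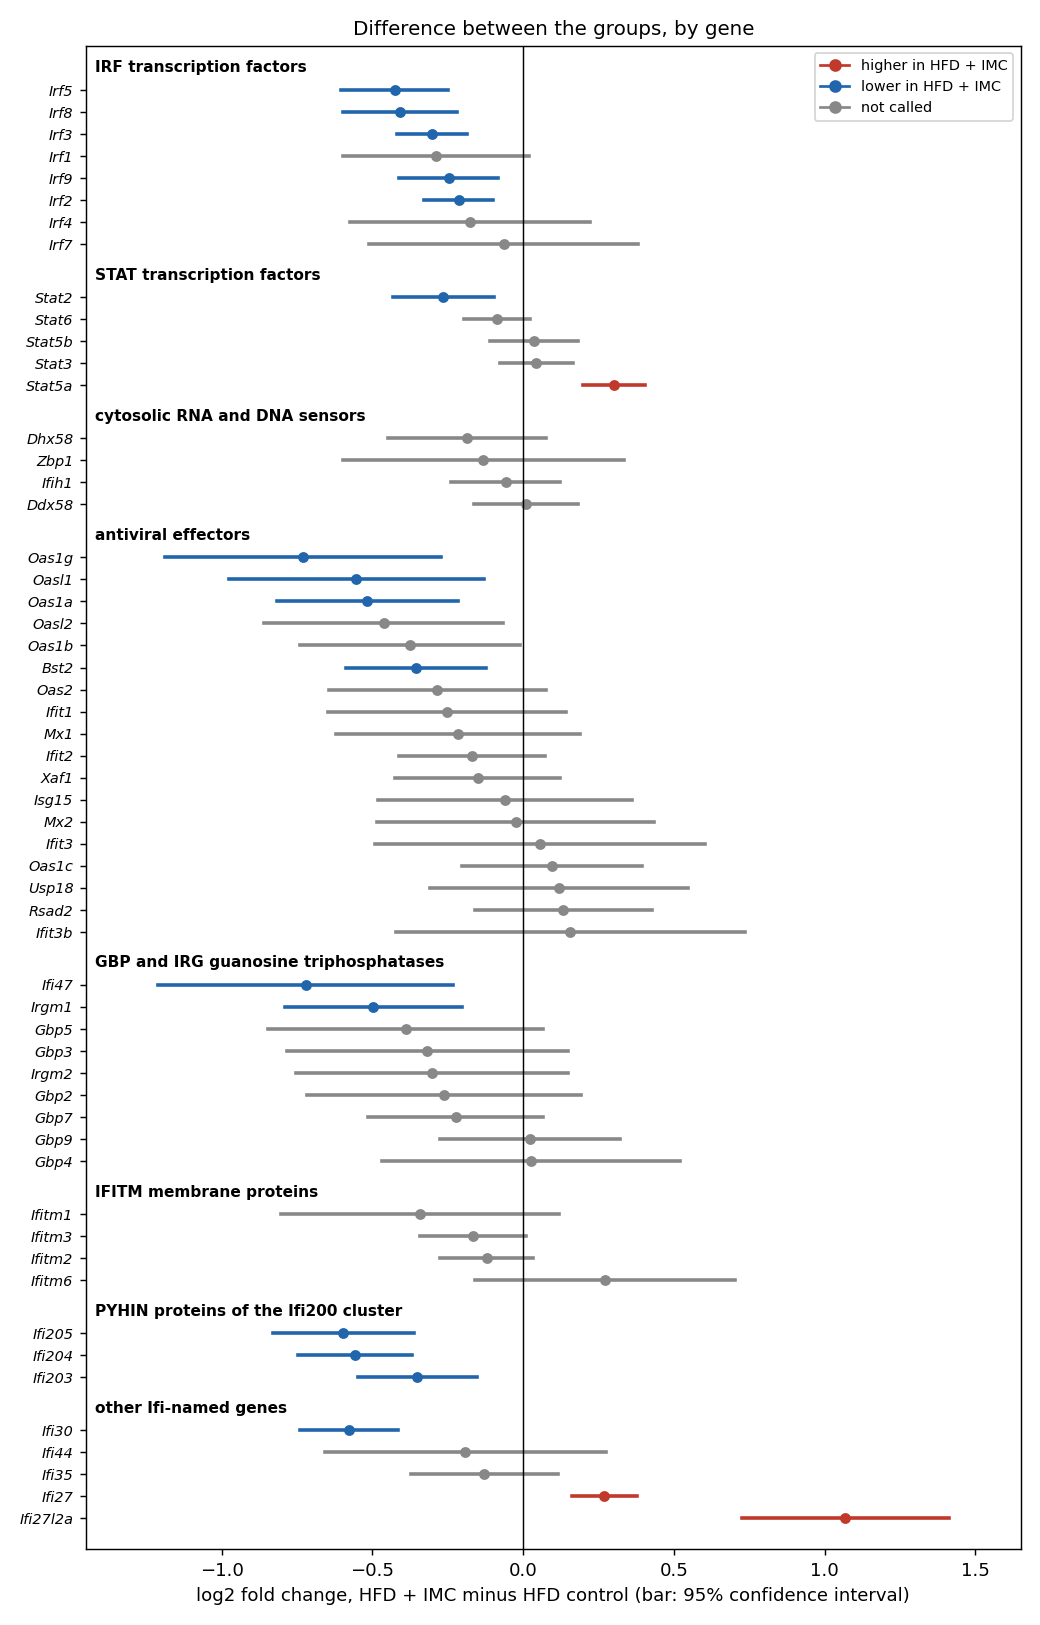
Log2 fold change (HFD + IMC minus HFD control, x axis) of 56 of the 57 genes with its 95% confidence interval from limma, grouped by family. The 16 lower genes are blue, the 3 higher genes are red and the 37 grey genes did not pass, and Ifi27l2a at 1.07 and Oas1g at -0.73 stand at the ends.

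IRF transcription factors bind the promoters of interferon and of its target genes. All 8 listed IRFs had a log2 fold change below 0, against 54.4% of all genes. Of the 8, 5 fell (62.5%), against 21% of all genes. For 4 of the 8, all of them among the 5 that fell, the groups did not overlap, where the share over all genes was 23.1%. Macrophage markers, as a list, moved the same way: 11 of 14 fell and none rose, with summed levels of 9608 to 12753 CPM in HFD control mice and 5698 to 9029 CPM in IMC-treated mice, and their part in the IRF differences was not tested.

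Irf5, a factor of Toll-like receptor signalling and of inflammatory macrophages, measured 7.27, 7.07, 7.36, 7.30 and 7.11 log2 CPM in the HFD control mice. The IMC-treated mice ran from 6.53 to 6.97 with a median of 6.85. Every control mouse stood above every treated mouse, and Irf5 fell by 0.43 on the log2 scale (SE 0.08; limma, adjusted p = 0.00137), a level 1.34-fold lower. Its locus, chr6:29526130-29541869, overlaps the gene Tnpo3. Irf8, required for the development of myeloid cells, measured 6.85, 6.77, 6.96, 7.24 and 6.84 log2 CPM in control mice and 6.37 to 6.71 (median 6.50) in treated mice. The groups did not overlap, and the highest control mouse was replicate 4. The fall of Irf8 was 1.33-fold (log2 fold change -0.41, SE 0.09; limma, adjusted p = 0.00271).

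Irf3, which is activated by kinases below the nucleic acid sensors and starts interferon beta transcription, measured 5.94, 5.87, 6.02, 5.94 and 6.05 log2 CPM in control mice. Treated mice lay between 5.54 and 5.75 (median 5.68), all under the lowest control. Irf3 fell by 0.30 on the log2 scale (SE 0.05; limma, adjusted p = 0.000818). Irf2, known as an antagonist of IRF1 at shared sites, fell by 0.21 (adjusted p = 0.00644 from limma) without overlap between the groups. Irf9, a DNA-binding partner of STAT2, overlapped between the groups and fell by 0.25 (limma, adjusted p = 0.0204). Without HFD control replicate 4 the adjusted p of Irf9 was 0.0565.

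The IRFs that did not pass were Irf1, Irf4 and Irf7. Irf1, an early target of interferon gamma, measured 5.92, 6.18, 6.02, 6.89 and 5.96 log2 CPM in control mice and 5.73 to 5.99 (median 5.96) in treated mice. HFD control replicate 4 stood far above the other mice. The log2 fold change of Irf1 was -0.29 with a 95% interval from -0.60 to 0.02, and it was -0.12 without that mouse. Irf7, the factor that amplifies the type I response, had a log2 fold change of -0.06 with an interval from -0.51 to 0.38, and HFD + IMC replicate 3 was its highest mouse at 5.40. Irf4, which acts in lymphocytes, macrophages and adipocytes, had a log2 fold change of -0.18, with an interval from -0.57 to 0.22.

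STAT transcription factors carry the signal from cytokine receptors to the nucleus. Of the 6 listed STATs, Stat5a rose and Stat2 fell (33.3% passed the test, against 40.9% of all genes). Stat5a, a mediator of growth hormone and prolactin signalling that also acts in adipocyte differentiation, measured 5.16, 5.24, 5.24, 5.27 and 5.30 log2 CPM in HFD control mice. In treated mice it lay between 5.45 and 5.67 (median 5.53), above every control. The rise was 1.23-fold (log2 fold change 0.30, SE 0.05; limma, adjusted p = 0.000384). The neighbouring Stat5b on chromosome 11, a close relative of Stat5a, had a log2 fold change of 0.04, with an interval from -0.11 to 0.18. Adipocyte markers moved with Stat5a, with 12 of 13 higher in IMC-treated mice and none lower, where 20% of all genes were higher. The part of the adipocyte markers in the Stat5a difference was not tested.

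Stat2, the STAT specific to type I and type III interferon signalling, measured 5.65, 5.85, 5.66, 5.98 and 5.80 log2 CPM in control mice and 5.37 to 5.79 (median 5.51) in treated mice. The groups overlapped through HFD + IMC replicate 3. Stat2 fell by 0.26 (SE 0.08; limma, adjusted p = 0.0159), and its locus overlaps Apof. Stat3, the STAT of interleukin 6 and leptin signalling, had a log2 fold change of 0.04 (from -0.08 to 0.16), and Stat6, the STAT of interleukin 4, had -0.09 (from -0.20 to 0.02), and neither passed.

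**Figure D2:**
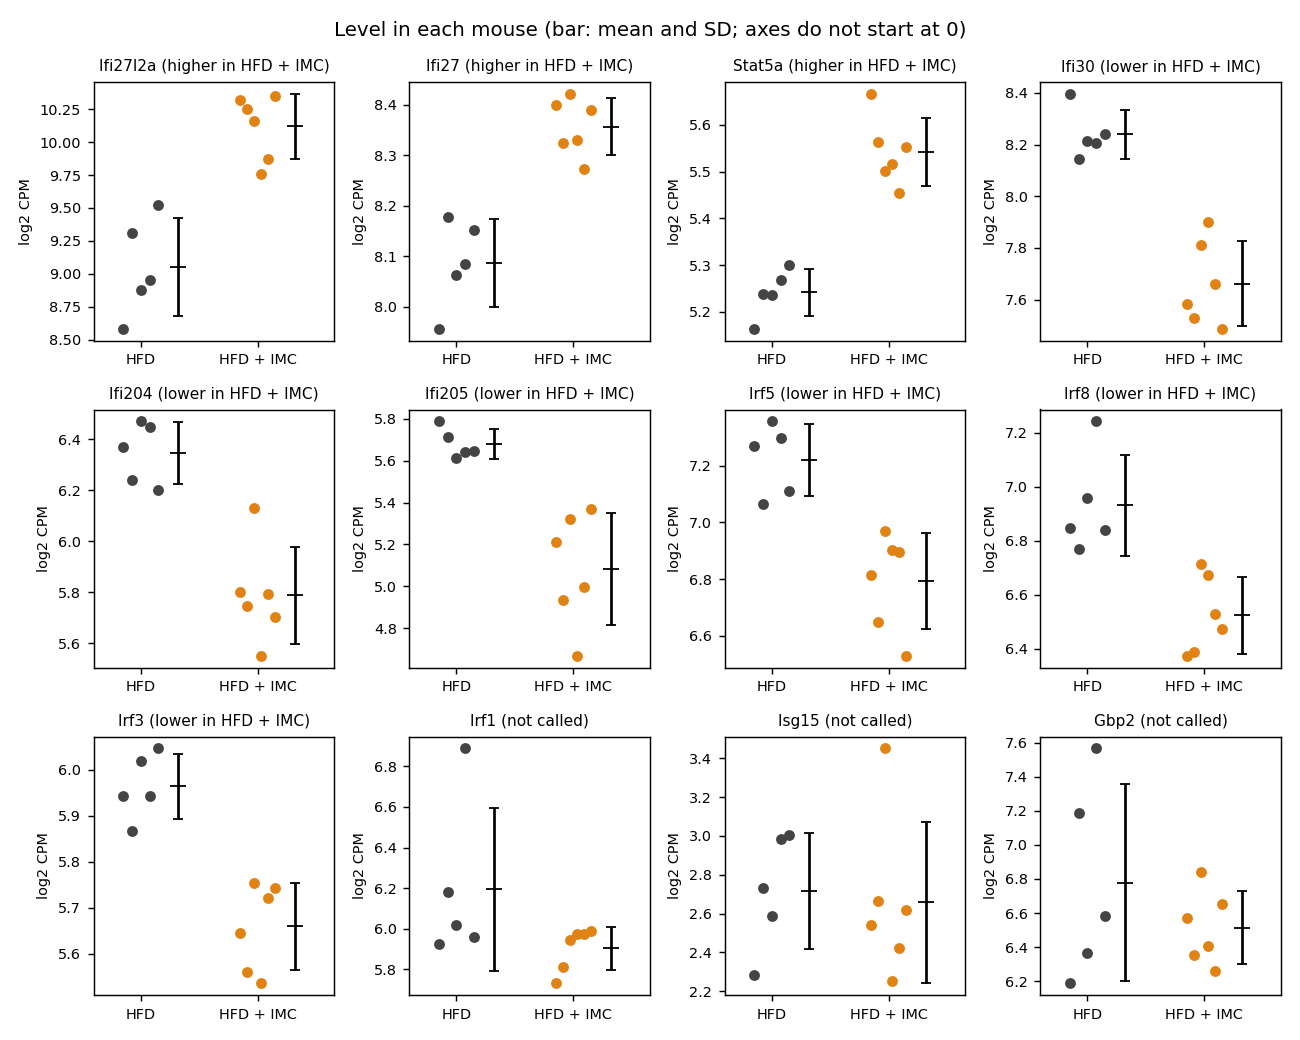
Log2 CPM of 12 genes in each of the 5 HFD control mice (grey) and 6 HFD + IMC mice (orange), with the mean and SD as bars beside the points. The groups are apart for the 9 called genes and overlap for Irf1, Isg15 and Gbp2.

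The cytosolic sensors recognise foreign or misplaced nucleic acid and start interferon production. None of the 4 passed the limma test, and none passed at an unadjusted p under 0.05 or with limma voom. Ddx58, which encodes the RNA sensor RIG-I, measured 5.18, 5.46, 5.41, 5.59 and 5.28 log2 CPM in control mice and 5.26 to 5.60 (median 5.36) in treated mice. Its log2 fold change was 0.01, with an interval from -0.16 to 0.18, and that of Ifih1, which encodes the sensor MDA5, was -0.06, from -0.24 to 0.12. For Dhx58, a regulator of both sensors, and Zbp1, a sensor of left-handed nucleic acid, the values were -0.19 (from -0.45 to 0.07) and -0.13 (from -0.60 to 0.33). In all 4 genes HFD control replicate 4 was the highest control and HFD + IMC replicate 3 the highest treated mouse. Without HFD + IMC replicate 3, Dhx58 had a log2 fold change of -0.29 and an adjusted p of 0.0199 from limma.

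The 18 antiviral effectors include the Ifit, Oas and Mx families. Of these, 4 fell (22.2%, against 21% of all genes), none rose and 14 did not pass. In none of the 18 were the groups apart, against 23.1% of all genes. The 4 that fell were 3 members of the oligoadenylate synthetase family, whose active members make the messenger that switches on RNase L, and Bst2, the membrane protein tetherin that holds budding virus at the cell surface. The family median of the log2 fold change was -0.19, the same as over all 57 genes.

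Oas1a measured 3.95, 4.14, 4.18, 4.16 and 4.0 log2 CPM in control mice and 3.06 to 4.12 (median 3.55) in treated mice. HFD + IMC replicate 3, at 4.12, was the treated mouse among the controls. Oas1a fell by 0.52 (SE 0.14; limma, adjusted p = 0.0101). Its neighbour Oas1g, at a low level of 1.18, 1.50, 1.60, 1.82 and 1.70 log2 CPM in control mice and 0.32 to 1.52 (median 0.69) in treated mice, fell by 0.73 (SE 0.21; limma, adjusted p = 0.0151). Oasl1, named here after its values were seen, fell by 0.55 (limma, adjusted p = 0.0379), and it did not pass in 7 of the 11 fits that each left out 1 mouse (adjusted p from 0.0528 to 0.102), all but those without replicates 1 or 2 of the controls or replicates 2 or 3 of the treated mice. The Oas1 genes on chromosome 5 (chr5:120730333-120907544 with Oas2) are near-identical copies in part, so reads may be split between them in ways that the table does not show. Bst2 measured 5.76, 5.92, 5.72, 6.20 and 5.74 log2 CPM in control mice and 5.35 to 5.89 (median 5.45) in treated mice. Only HFD + IMC replicate 3 reached the controls, and Bst2 fell by 0.36 (SE 0.11; limma, adjusted p = 0.0183).

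Isg15, a ubiquitin-like protein attached to other proteins during the response, measured 2.28, 2.73, 2.59, 2.98 and 3.0 log2 CPM in control mice and 2.25 to 3.45 (median 2.58) in treated mice. The highest and the lowest mouse were both in the treated group. The log2 fold change of Isg15 was -0.06, with an interval from -0.48 to 0.36. Ifit1, which binds viral RNA, had a log2 fold change of -0.25 (from -0.65 to 0.14), and Ifit3, its partner, had 0.06 (from -0.49 to 0.60), with Ifit3b as a similar copy that may share its reads. Rsad2, the antiviral enzyme viperin, and Usp18, which removes Isg15 from proteins and dampens the receptor, had values of 0.13 (from -0.16 to 0.43) and 0.12 (from -0.31 to 0.55). Mx1, a dynamin-like antiviral protein, had -0.22 (from -0.62 to 0.19). These intervals do not exclude changes in either direction, and their width came from the spread between mice: Ifit3 ran from 2.76 to 4.04 log2 CPM among control mice and from 2.96 to 4.24 among treated mice.

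Within the treated group 1 mouse carried most of the highest values. HFD + IMC replicate 3 was the highest treated mouse in 14 of the 18 effectors and in 39 of all 57 genes (68.4%), against 12.8% of all listed genes. HFD + IMC replicate 4 was the lowest in 12 of the 18, and among the controls HFD control replicate 1 was the lowest in 15 of the 18 and in 38 of the 57 genes (66.7%), against 23% of all genes. Without HFD + IMC replicate 3, 24 of the 57 genes (42.1%) passed the limma test, against 39.4% of all genes in the same fit, with Dhx58, Oas1b, Oas2, Oasl2 and Xaf1 added to the 19. The groups then did not overlap for 17 of the 57 genes (29.8%) in place of 10, against 26% of all genes. Both shares, counted in either direction, lay near those of all genes. By direction, 21 of the 57 genes (36.8%) were lower in that fit, against 19.8% of all genes, and 5.26% were higher, against 19.7%. HFD + IMC replicate 3 was the highest treated mouse in 39 of the 57 genes, so leaving it out lowers their treated means. The added lower calls are therefore not separate support for a fall.

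**Figure D3:**
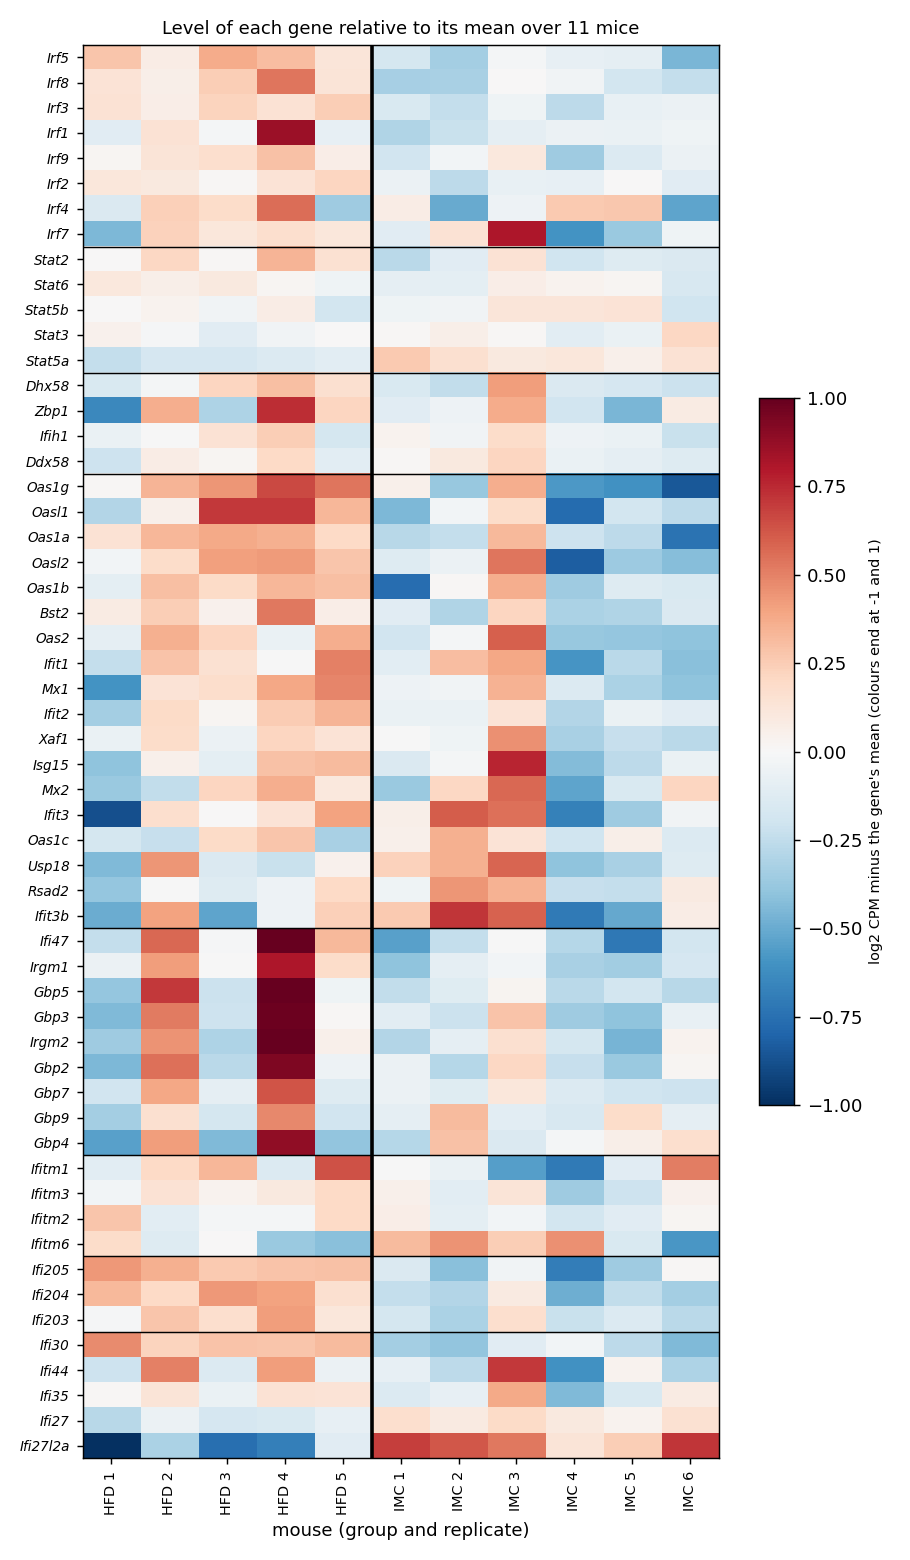
Log2 CPM of the same 56 genes (rows, by family in the order of the fold change plot) in the 11 mice (columns), each minus the mean of its gene over all mice. HFD 4 is red across the GBP and IRG genes, IMC 3 is red across the antiviral effectors, and Ifi27l2a in the bottom row is blue in the control mice and red in the treated mice.

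The guanylate-binding proteins (GBPs) and immunity-related GTPases (IRGs) are induced most strongly by interferon gamma and attack the vacuoles of intracellular microbes. Of the 9 listed genes, Irgm1 and Ifi47 fell (22.2%, against 21% of all genes) and 7 did not pass. Irgm1 measured 5.22, 5.70, 5.27, 6.09 and 5.47 log2 CPM in control mice and 4.88 to 5.25 (median 5.04) in treated mice, and it fell by 0.50 (SE 0.14; limma, adjusted p = 0.0112). Ifi47 measured 4.10, 4.91, 4.33, 5.66 and 4.66 in control mice and 3.63 to 4.33 (median 4.08) in treated mice, and it fell by 0.72 (SE 0.23; limma, adjusted p = 0.0221). In both genes the lowest controls overlapped the treated mice and HFD control replicate 4 was the highest mouse. The locus of Ifi47 overlaps Gm12188.

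Gbp2, the GBP with the highest level per kilobase of exon (43.6 CPM per kb in control mice and 36.3 in treated mice), measured 6.19, 7.18, 6.37, 7.57 and 6.58 log2 CPM in control mice. Treated mice lay between 6.26 and 6.84 (median 6.49). Replicates 2 and 4 of the controls stood above all treated mice, and the other 3 controls lay near or within their range. The log2 fold change of Gbp2 was -0.26, with an interval from -0.72 to 0.19. It was -0.067 without HFD control replicate 4, -0.16 without HFD control replicate 2 and -0.41 without HFD control replicate 1. The 4 Gbp genes clustered at chr3:142496934-142638008 had log2 fold changes from -0.39 to -0.22, and Gbp4 and Gbp9 at chr5:105076464-105139586 had 0.03 and 0.02. None of the 6 passed the test.

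The spread between control mice was shared across this family. HFD control replicates 2 and 4 were the 2 highest controls in 9 of 9 GBP and IRG genes, against 7.27% of all listed genes, and HFD control replicate 1 was the lowest control in 9 of 9. The SD between mice was larger in the control group in 9 of 9 genes, with a median SD of 0.58 log2 CPM in control mice and 0.21 in treated mice. Over all 57 genes the SD was larger in controls in 22 (38.6%), and over all listed genes in 46.6%. Among the 18 antiviral effectors it was larger in controls in 4, with median SDs of 0.27 and 0.38. This pattern was noticed after the values were seen, and no test of the SDs was made. T cell and NK cell markers, of which 6 were listed, summed to 59.5 to 95.8 CPM in control mice and 34.4 to 47.8 CPM in treated mice. Thy1, which fibroblasts and progenitors also express, made up 73.2% of the sum in control mice on average and was the 1 marker that fell (log2 fold change -0.91; limma, adjusted p = 0.00048). The other 5 (Cd2, Nkg7, Klrb1c, Klrd1 and Ncr1) did not pass, with log2 fold changes from -0.65 to 0.17. These 5 summed to 14.6, 16.8, 20.7, 32.2 and 13.1 CPM in the control mice and to 10.3 to 18.7 CPM in treated mice. HFD control replicate 4 was the highest mouse for them as for the GBP and IRG genes, HFD control replicate 2 was not among the 2 highest controls, and their part in the GBP and IRG values was not tested.

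**Figure D4:**
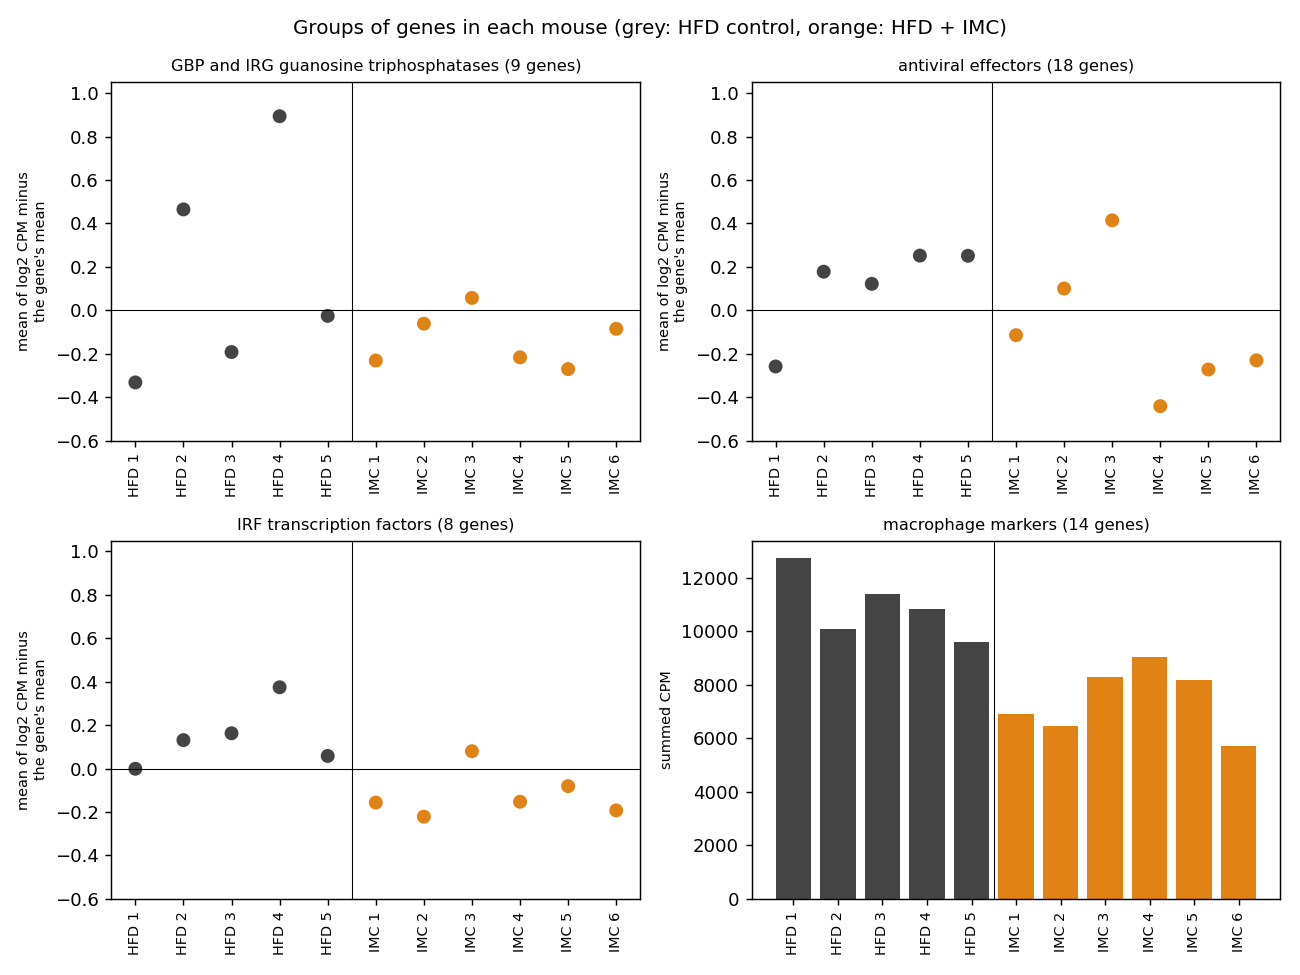
Mean over the genes of a family of log2 CPM minus the gene's mean, in each mouse, for GBP and IRG genes, antiviral effectors and IRFs, and summed CPM of the 14 macrophage markers as bars from 0. GBP and IRG genes are highest in HFD 4 (0.89) and HFD 2 (0.46), the effectors are highest in IMC 3 (0.41), and the macrophage sums do not overlap between the groups.

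**Figure D5:**
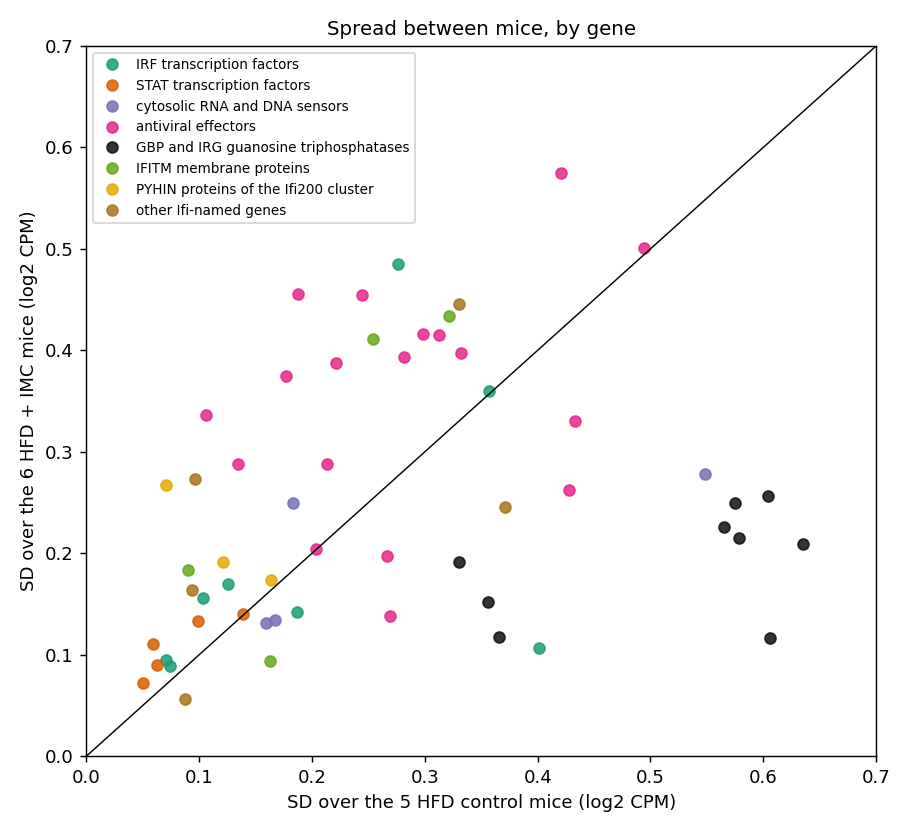
SD of log2 CPM over the 5 HFD control mice (x axis) against SD over the 6 HFD + IMC mice (y axis), 1 point for each of the 56 genes, coloured by family, with the line of equal SD. The 9 GBP and IRG genes all lie below the line, and 14 of the 18 antiviral effectors lie above it.

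The IFITM proteins sit in membranes and hinder the entry of viruses. None of the 4 listed genes passed the limma test, an unadjusted p under 0.05 or limma voom, although Ifitm2 and Ifitm3 were among the highest per length (263 and 229 CPM per kb in control mice, 242 and 204 in treated mice). Ifitm3 measured 7.16, 7.34, 7.22, 7.29 and 7.39 log2 CPM in control mice and 6.83 to 7.32 (median 7.15) in treated mice. The groups overlapped, and the log2 fold change of Ifitm3 was -0.17, with an interval from -0.34 to 0.01. For Ifitm2 it was -0.12, from -0.28 to 0.03. Ifitm1 (-0.34, from -0.80 to 0.12) and Ifitm6 (0.27, from -0.16 to 0.70) were low, with wide intervals. The 4 genes lie together at chr7:140954837-141016892, and reads of these similar genes may be shared.

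The PYHIN proteins of the Ifi200 cluster include DNA sensors. The symbol rule took in 3 of them, Ifi203, Ifi204 and Ifi205, and all 3 fell, where 21% of all genes were called lower. Among PYHIN genes in the list of other interferon-stimulated genes, Mndal, Mnda and Aim2 also fell, while Pyhin1 did not pass (log2 fold change -0.26). Ifi204, a DNA sensor upstream of STING, measured 6.37, 6.24, 6.47, 6.45 and 6.20 log2 CPM in control mice and 5.55 to 6.13 (median 5.77) in treated mice. No treated mouse reached the controls, and Ifi204 fell by 0.56 (SE 0.09; limma, adjusted p = 0.000378), a level 1.47-fold lower. Ifi205 measured 5.79, 5.71, 5.61, 5.64 and 5.65 in control mice and 4.67 to 5.37 (median 5.10) in treated mice. The groups were again apart, and Ifi205 fell by 0.60 (SE 0.11; limma, adjusted p = 0.000935). Ifi203 overlapped through HFD + IMC replicate 3 and fell by 0.35 (SE 0.09; limma, adjusted p = 0.00857). The 3 genes are neighbours at chr1:173747293-174031755 and arose as copies of each other, so the assignment of reads among them is uncertain. Macrophages are a known site of Ifi204 expression. The macrophage marker sums given with the IRFs did not overlap between the groups, and their part in the Ifi204 difference was not tested.

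The remaining 5 Ifi genes share a name and not a function. Ifi30, the lysosomal thiol reductase GILT that unfolds antigens for MHC class II, measured 8.40, 8.14, 8.21, 8.20 and 8.24 log2 CPM in control mice and 7.49 to 7.90 (median 7.62) in treated mice. All treated mice lay under all controls. Ifi30 had the smallest p of the 57 genes and fell by 0.58 (SE 0.08; limma, adjusted p = 0.000117), from 308 to 206 CPM per kb. Its locus, chr8:70762773-70766663, overlaps 6330537M06Rik. Ifi35 and Ifi44, both induced by interferon, had log2 fold changes of -0.13 (from -0.37 to 0.11) and -0.19 (from -0.66 to 0.27).

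Ifi27l2a and Ifi27, small hydrophobic proteins of 1 family, went the other way. Ifi27l2a measured 8.58, 9.31, 8.88, 8.95 and 9.52 log2 CPM in control mice and 9.76 to 10.35 (median 10.20) in treated mice. Every treated mouse stood above every control. Ifi27l2a had the largest change of the 57 genes, a rise of 2.10-fold (log2 fold change 1.07, SE 0.16; limma, adjusted p = 0.000257), and the highest level per length, with 1144 CPM per kb in control mice and 2401 in treated mice. Ifi27 measured 7.96, 8.18, 8.06, 8.09 and 8.15 in control mice and 8.27 to 8.42 (median 8.36) in treated mice. It rose 1.21-fold without overlap (log2 fold change 0.27, SE 0.05; limma, adjusted p = 0.000993). The annotated loci of these 2 genes overlap each other (chr12:103433873-103443680 and chr12:103434189-103440245), and the strand setting of the read count is not given in the sources used here, so their reads may be shared in part.

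The rest of the pathway was read from lists of other genes. Over all listed genes 21% were called lower and 20% higher, the background for the counts of these lists and of the cell marker lists below. Of 8 listed receptor chains and Janus kinases, 4 fell and none rose, among them Il10rb, a chain of the interferon lambda and interleukin 10 receptors (log2 fold change -0.40; limma, adjusted p = 0.00249), Tyk2, a kinase of the type I receptor (-0.29, 0.00362), and Ifnar1, a chain of that receptor (-0.18, 0.0197). The fourth was Ifngr2, the signalling chain of the interferon gamma receptor, which fell by 0.24 (limma, adjusted p = 0.0321). Ifngr2 did not pass in 4 of the 11 fits that each left out 1 mouse, those without replicates 1 or 3 of the controls or replicates 2 or 6 of the treated mice (adjusted p from 0.0605 to 0.0871), and Ifnar1 did not pass without HFD control replicate 3 (adjusted p = 0.0521). Ifngr1, the ligand-binding chain for interferon gamma, had a log2 fold change of 0.04 and Jak1 of 0.01, and neither passed. Of 16 SOCS, PIAS and phosphatase genes that restrain the pathway (Usp18 is in this list too), 6 fell and 1 rose. Ptpn11, the phosphatase SHP2, rose by 0.48 (limma, adjusted p = 3.5e-05), while Ptpn6, the leukocyte phosphatase SHP1, fell by 0.57 (limma, adjusted p = 0.00211) and Socs1, an inhibitor that interferon gamma induces, fell by 0.85 (limma, adjusted p = 0.00254).

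Of 25 adaptors and kinases of nucleic acid sensing, 11 fell and 3 rose. Tmem173, which encodes STING, fell by 0.49 (limma, adjusted p = 0.00013), Unc93b1, the chaperone of endosomal Toll-like receptors, by 0.45 (limma, adjusted p = 0.00102), and Myd88, their adaptor, by 0.30 (limma, adjusted p = 0.0013). Of 60 other interferon-stimulated genes, 21 fell (35%) and 3 rose, where 21% of all genes fell and 20% rose. The median log2 fold change of the 60 genes was -0.21. Slfn2, of the Schlafen family, fell by 0.54 (limma, adjusted p = 0.000322) and Shisa5 by 0.34 (limma, adjusted p = 0.00062), while Lgals3bp, a secreted glycoprotein, rose by 0.41 (limma, adjusted p = 0.00115).

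Markers of other cells gave a mixed picture beside these values. The macrophage markers with the smallest p were Cd9 (log2 fold change -0.70), Trem2 (-0.79) and Cd14 (-0.56), all lower by limma. The sums of the macrophage list were 0.679 times as high in treated mice and those of the adipocyte list 1.52 times. Of 10 endothelial markers, 2 rose and none fell, and of 10 progenitor and fibroblast markers, 6 fell and none rose. Of 6 listed dendritic cell markers, 2 fell and 1 rose, of 6 mesothelial markers 2 fell, and neither of 2 neutrophil markers passed. Their part in the differences of the 57 genes was not tested.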

How the data were processed

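RNA from the gonadal WAT of 11 mice was analysed, with groups taken from the sample labels. The authors trimmed reads with Trim Galore, checked them with FastQC, used STAR for alignment to mm10 (UCSC transcripts), removed transcripts with low counts, and scaled the libraries with edgeR. They deposited 1 table of log2 CPM for 12787 genes. Its other deposited columns hold the authors' log2 fold change, likelihood-ratio score, p-value and adjusted p-value for the same 2 groups, and none of these was used.

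The log2 CPM values were compared with limma 3.58.1 in R 4.3.3 (lmFit and eBayes with a trend, group as the only factor, Benjamini-Hochberg adjustment over all listed genes), with no further filter or pseudocount. Whole reads were recovered from the values for 100% of the table (tolerance 0.1 reads), and gave the depth and the limma voom alternative. Fold changes are therefore relative to the authors' upper-quartile scaling, and low genes carry their small added count. The fit was tested on simulated data.

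The 57 genes and the other lists were chosen with earlier results of these data known, so a pattern in them is not independent evidence. Genes named are the classical members written out for this work, the 3 smallest p in each family, in each pathway list and among macrophage markers, and members with a mouse standing apart by Dixon's test. A further 13 of the 57 genes were named after their values were seen. So were Ifngr1, Ifngr2, Jak1, Mndal, Mnda, Aim2, Pyhin1 and the T cell and NK cell markers. Exon lengths came from GENCODE M21, and loci and promoters from RefSeq (GRCm38.p6, the assembly of mm10). All 57 genes had a RefSeq locus, and 18 overlap another annotated gene. The values of 1 of the 57 genes are not reported here, though it stays in the counts. Alternatives were other scalings, weights, variance models, a constant of 1 CPM, a filter at a mean of 1 log2 CPM and leaving out each mouse. B cell and epididymal epithelium marker lists had no listed gene and were not analysed here. Figures were drawn with matplotlib 3.10.9.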

Additional observations from a re-analysis of the deposited data

Results flagged for a closer look

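A mouse stood apart from the rest of its group by Dixon's test in 5 of 114 sets of values (57 genes in 2 groups, 4.39%), against 4.83% over all listed genes, and chance gives about 1 in 20. Among control mice, HFD control replicate 4 was far above the others for Irf1 (6.889 log2 CPM, next mouse 6.18), and HFD control replicate 1 was far below the others for Irf7 (4.146, next mouse 4.71). Among treated mice, HFD + IMC replicate 3 was far above the others for Dhx58 (4.301, next mouse 3.74), Ifi203 (5.507, next mouse 5.20) and Isg15 (3.451, next mouse 2.66). Of these genes, Ifi203 was called, and it passed the limma test in 11 of 11 fits that each left out 1 mouse.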

How the results depend on the processing

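Of the 19 genes called, 17 passed the limma test in all 20 fits, the exceptions being Irf9 and Oasl1. Over the 8 settings that kept all mice, 68 of the named genes were followed (49 of the 57 and 19 of other lists). They kept their direction and their side of the threshold in 541 of 543 values. In those settings Oasl1 did not pass without the trend and Oasl2 passed with limma voom on recovered reads. The median of all genes moved by less than 0.1 on the log2 scale in every fit. When each mouse was left out in turn, 703 of 748 values kept direction and side. Irf9 did not pass without HFD control replicate 4 (-0.21, adjusted p = 0.0565), Oasl1 did not in 7 fits, Ifngr2 in 4 and Ifnar1 in 1, while Oas1b, Oas2, Oasl2, Xaf1 and Dhx58 passed without HFD + IMC replicate 3 (Dhx58 at -0.29, adjusted p = 0.0199). Another 27 values, all of genes that did not pass in any fit, changed sign: their log2 fold changes ran from -0.041 to 0.061 for Ddx58, -0.11 to 0.25 for Gbp4, -0.058 to 0.15 for Gbp9, -0.15 to 0.20 for Ifit3, -0.23 to 0.050 for Irf7, -0.22 to 0.021 for Isg15, -0.017 to 0.033 for Jak1, -0.0033 to 0.080 for Stat5b and -0.31 to 0.033 for Zbp1. Leaving out a mouse, the genes without overlap between the groups numbered 10 to 17 of the 57 (17.5% to 29.8%), the highest without HFD + IMC replicate 3, against 24% to 28.7% of all genes. The genes lower in IMC-treated mice numbered 14 to 21 (24.6% to 36.8%), against 16.5% to 20.4% of all genes, and the genes higher numbered 3 throughout. The median log2 fold change of the 57 genes ran from -0.27 to -0.12. The fewest reads of any listed gene in a mouse were 5, and intervals rest on the spread between 5 and 6 mice. No paired analysis was possible because the replicate numbers were given in accession order and pair no mice.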
